A study of Mus musculus with 12 samples.

Results

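The axon guidance ligands and receptors are the genes of the semaphorin, plexin, neuropilin, ephrin, Eph receptor, netrin, Slit and Robo families, with the netrin receptors Dcc, Neo1 and Unc5 and the secreted protein reelin. They were chosen by gene symbol, and 72 of the 18193 genes named on the arrays belonged to them. These were 20 semaphorins, 11 plexins and neuropilins, 8 ephrins, 13 Eph receptors, 6 netrins, 6 netrin receptors, 3 Slits, 4 Robos and Reln. Of the 72, 57 were bright enough to be tested, among 11806 genes tested in all, and 15 were not.

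Transcripts were measured on 12 Affymetrix arrays. The cells were a mouse embryonic stem (ES) line in which doxycycline switches on neurogenin 1 (Neurog1) through a tetracycline-controlled system. All groups shared the genotype 129P2/OlaHsd (E14, Ainv15) and a medium with serum, leukaemia inhibitory factor, puromycin and G418. The 4 groups of 3 arrays were uninduced cells (0 h) and cells given 1 ug/ml doxycycline for 24, 48 or 72 h, and the labels call the arrays of a group biological replicates. Uninduced cells were taken at 0 h alone, so effects of the transgene, of doxycycline and of time cannot be told apart. The labels do not say whether the line is 1 clone.

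Growing axons are steered by cues that attract or repel their tips. Secreted or membrane-bound semaphorins act on plexins, with neuropilins as co-receptors of the secreted Sema3 group. Ephrins and Eph receptors signal between touching cells, often in both directions. Netrins attract through Dcc and repel through Unc5 proteins, Slits repel through Robos, and reelin directs the positioning of migrating neurons.

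Promoters are shown first, because many members rose together and the induced factor, a basic helix-loop-helix protein, belongs to a class that binds E-boxes (CANNTG). The table of RefSeq promoters (GRCm38.p6) gives 300 bases per gene start, 250 before it and 50 after it, and 62 of the 72 members matched, with 78 windows. Dcc, which had the largest rise at 48 h, had no matched window. The windows below belong to Sema6d, Reln, Nrp1 and Efnb2, which were among the 5 members with the largest rises at 48 h for the probe sets used. They are written 5′ to 3′ on the gene's strand, with each CANNTG in capitals.
Sema6d, chr2:124089719-124090018, plus strand: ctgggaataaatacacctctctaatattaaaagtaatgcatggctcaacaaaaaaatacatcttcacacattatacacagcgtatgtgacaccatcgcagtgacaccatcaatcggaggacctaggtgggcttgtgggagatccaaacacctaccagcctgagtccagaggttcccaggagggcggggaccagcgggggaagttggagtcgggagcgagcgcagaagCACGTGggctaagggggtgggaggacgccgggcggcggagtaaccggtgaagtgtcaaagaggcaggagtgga
Sema6d, chr2:124653331-124653630, plus strand: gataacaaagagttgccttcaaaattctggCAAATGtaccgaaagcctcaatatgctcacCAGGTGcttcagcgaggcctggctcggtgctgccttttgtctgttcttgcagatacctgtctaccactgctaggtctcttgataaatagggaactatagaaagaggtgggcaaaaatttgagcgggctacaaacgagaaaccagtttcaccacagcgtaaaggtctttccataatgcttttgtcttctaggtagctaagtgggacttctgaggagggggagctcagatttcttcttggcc
Reln, chr5:22344656-22344955, minus strand: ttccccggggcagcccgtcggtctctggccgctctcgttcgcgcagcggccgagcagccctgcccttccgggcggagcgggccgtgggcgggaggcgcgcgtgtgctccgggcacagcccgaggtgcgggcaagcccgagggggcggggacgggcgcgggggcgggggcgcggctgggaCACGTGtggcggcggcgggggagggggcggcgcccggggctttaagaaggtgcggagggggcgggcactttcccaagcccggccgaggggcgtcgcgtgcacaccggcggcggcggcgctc
Nrp1, chr8:128358823-128359122, plus strand: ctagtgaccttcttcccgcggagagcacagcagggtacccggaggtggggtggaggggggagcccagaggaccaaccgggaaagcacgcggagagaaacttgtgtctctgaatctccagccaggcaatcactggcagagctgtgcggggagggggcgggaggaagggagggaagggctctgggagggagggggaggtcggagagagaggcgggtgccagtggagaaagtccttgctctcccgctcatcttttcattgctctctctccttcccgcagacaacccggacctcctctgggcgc
Efnb2, chr8:8661193-8661492, minus strand: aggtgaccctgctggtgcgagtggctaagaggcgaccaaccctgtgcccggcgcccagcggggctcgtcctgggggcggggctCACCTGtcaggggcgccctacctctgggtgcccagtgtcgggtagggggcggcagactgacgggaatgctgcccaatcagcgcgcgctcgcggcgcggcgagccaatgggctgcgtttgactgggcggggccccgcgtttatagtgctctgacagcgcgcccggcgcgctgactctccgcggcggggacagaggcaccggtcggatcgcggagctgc
The first Sema6d window and that of Reln each hold CACGTG, starting 23 and 71 bases before the gene start. The second Sema6d window holds the motif in capitals at 2 places, that of Efnb2 at 1 place, and that of Nrp1 at none. A narrower form of E-box, known to be preferred by neurogenins, is CAGATG on either strand. Both strands were searched, none of the windows shown holds this form, and the count of CANNTG includes it. The narrower form stood in 1 of 30 windows (3.33%) of the members that rose at 48 h, that of Sema3c, in 1 of 21 windows (4.76%) of the members tested and not called, in 6 of 78 windows (7.69%) of all members matched and in 17.2% of all 32851 windows. For CANNTG the shares were 40% of the members that rose, 52.4% of those not called, 50% of all members matched and 72.3% of all windows. Median GC content was 66.7% in windows of members that rose, 64.2% in all member windows and 52.7% in all windows. These letters are a description of the windows, and no binding was measured here.

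Signals are linear MAS5 intensities. A difference is the difference of group means of log2(signal + 16) ± the standard error (SE) from limma, with n = 3 against 3 arrays, and this scale understates the change of dim genes. "Rose" and "fell" are used for a Benjamini-Hochberg adjusted p under 0.05 over all 11806 genes tested, and a gene that passes is called.

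Neurog1 signals were 11.4, 18.7 and 4.53 on the uninduced arrays, 756, 931 and 974 at 24 h, 1089, 1152 and 889 at 48 h, and 783, 679 and 465 at 72 h. Every induced array was far above every uninduced array. All 8 ES cell markers lay above their arrays' median in uninduced cells, and 6, 8 and 8 of the 8 fell at 24, 48 and 72 h. Of 10 neuron markers 9 rose at 48 h and 9 at 72 h, and at 24 h 3 rose and 2 fell. Their summed signal ran from 3968 to 4397 in uninduced cells, 1777 to 4372 at 24 h, 10274 to 15183 at 48 h and 26209 to 28721 at 72 h. Of 6 neural progenitor markers 3, 5 and 5 rose at 24, 48 and 72 h, and their sum ran from 2224 to 2457 in uninduced cells, 7137 to 7996 at 48 h and 7769 to 8932 at 72 h. The part of these cell states in the members' results was not tested. The summed signals of astroglia and oligodendrocyte markers (113 to 145 uninduced, 161 to 660.0 at 72 h), mesendoderm and endoderm (95.0 to 176, 213 to 454), mesoderm and muscle (60.5 to 93.0, 123 to 173), fibroblasts and feeders (121 to 171, 71.3 to 250.2) and neural crest (237 to 261, 397 to 430.4) were far below that of the neuron markers. Those of endothelium (212 to 377 uninduced, 68.1 to 86.7 at 72 h) went down, and those of trophoblast ran from 146 to 572 uninduced, from 261 to 2038 at 24 h and from 244 to 345 at 72 h. The lists hold different genes and numbers of genes, so these sums do not rank cell types. Of 3 tested astroglia and oligodendrocyte markers 2 rose at both 48 and 72 h. Of 4 mesendoderm and endoderm markers 1 and 2 rose, and of 1 for mesoderm and muscle 0 and 1. Of 3 fibroblast and feeder markers 2 rose and 1 fell at 48 h, and 1 fell at 72 h. Of 4 neural crest markers 2 rose and 1 fell at both times. Of 3 endothelium markers 1 and 2 fell. In bulk RNA, fewer cells of a type and less RNA per cell cannot be told apart. Induced 24 h replicate 1 stood apart, with r = 0.812 and 0.787 against the other 24 h arrays across tested genes, against at least 0.961 for every other pair within a group. Counts of calls, and several members' values at 24 h, are given with and without it. Sizes for 48 h against 24 h include it unless stated.

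At 24 h 5 members rose (Sema4c, Sema6d, Efnb1, Ntn4 and Neo1) and Ntn1 fell, 6 of 57 called (10.5%) against 11.3% of all genes tested, of which 8.12% rose and 3.18% fell. At 48 h 31 rose and 5 fell (63.2% called, against 36.6% of all genes), and at 72 h 33 rose and 3 fell (63.2%, against 43.9%). Of the 57 tested members, 30 passed the filter on dim genes only through an induced group, among them 21 of the 31 that rose at 48 h, so these counts are a description. With no filter 36 of 72 members (50%) were called at 48 h, 31 of them higher, beside 22.3% of all 18193 genes, and 40 (55.6%) at 72 h beside 28%. With quantile normalization 26 members rose at 48 h (45.6%), beside 18.3% of all genes. In the main fit calls upward made up 22.6% of all genes at 48 h and 25.3% at 72 h, and calls downward 14% and 18.6%. The median difference of the tested members from uninduced cells was 0.32, 1.10 and 1.33 at 24, 48 and 72 h, beside 0.10, 0.12 and 0.09 for all genes tested.

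All 3 arrays at 48 h lay above all 3 uninduced arrays for 31 of 57 members and below for 7 of 57, beside 35.4% and 26.9% of all genes. At 72 h the counts were 34 and 6 of 57, beside 35.6% and 29.6%, and at 24 h 10 and 2 of 57, beside 17.4% and 9.41%. Over the 3 times 41 members were called at least at 1 time, 35 upward and 6 downward, and 16 never. That is 71.9%, beside 49% of all genes tested, with 61.4% upward and 10.5% downward beside 29.5% and 19.8%. The 3 comparisons share the uninduced arrays and are therefore not independent. Of 30 tested ligands 16 rose and 3 fell at 48 h, and of 27 tested receptors 15 rose and 2 fell. Of all genes, 22.6% rose and 14% fell at that time. The shares of all genes called at each time are the background of the family counts below as well. Families are small, so a family without falls, or without calls at 24 h, cannot be told from that background.

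**Figure D1:**
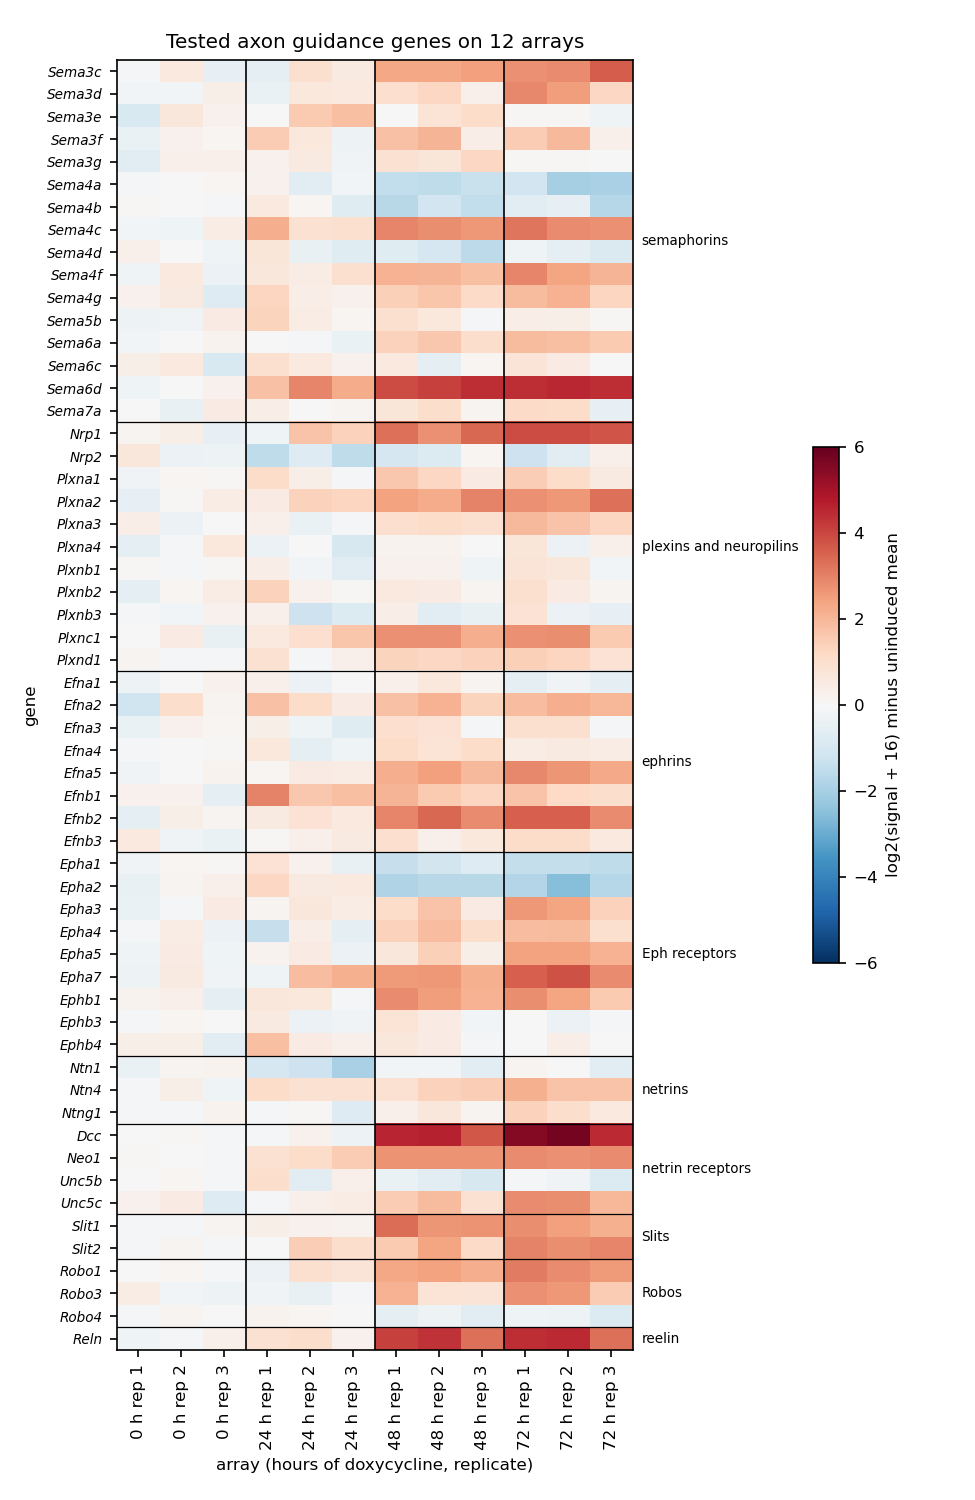
Heat map of log2(signal + 16) minus the mean of the 3 uninduced arrays for the 57 tested members (rows, by family) on the 12 arrays (columns, by hours of doxycycline and replicate). Dcc, Sema6d, Reln, Nrp1 and Efnb2 are the deepest red at 48 h and among the deepest at 72 h, and Sema4a, Epha1 and Epha2 are blue at both times.

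Without induced 24 h replicate 1, 13 members were called at 24 h (22.8%, 12 higher and 1 lower), beside 25.1% of all genes. At 48 h 39 members were called (68.4%, 33 higher), beside 56.9%, and at 72 h 39 (68.4%, 35 higher), beside 62.3%. Calls upward then made up 57.9% of members at 48 h and 61.4% at 72 h, beside 32.9% and 34.2% of all genes. Calls downward made up 10.5% and 7.02% of members, beside 24% and 28.1% of all genes. At both times the share called in either direction lay closer to the background than with all arrays. For 48 h against 24 h 29 members were called (50.9%), beside 25.5% of all genes, and for 72 h against 48 h 2 (3.51%), beside 4.11%. On that array 6 of 57 members were at least 2-fold above both other 24 h arrays and 6 at least 2-fold below (10.5% each), beside 13% and 18.7% of all genes. Arrays numbered 3 were often the lowest of their group among the members that rose, for 21 of 31 (67.7%) at 48 h and 27 of 33 (81.8%) at 72 h. Among all genes called higher these shares were 52.3% and 62.8%. Array weights gave induced 24 h replicate 1 a weight of 0.05. With them 14, 42, 43, 34 and 16 members were called in the 5 comparisons (24.6%, 73.7%, 75.4%, 59.6% and 28.1%). Of all genes, 25.4%, 57.2%, 65.6%, 34.7% and 13.3% were called.

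Semaphorins moved in both directions, as did all genes tested. Of 16 tested, 2 rose at 24 h, 7 rose and 3 fell at 48 h, and 7 rose and 1 fell at 72 h, with median differences of 0.46, 0.90 and 0.93. Sema6d, a transmembrane semaphorin that acts on A-type plexins, gave signals of 6.33, 11.0 and 15.4 on the uninduced arrays, 73.2, 190.3 and 109 at 24 h, 386, 442 and 552 at 48 h, and 562, 588 and 557 at 72 h. No array of any induced time overlapped with the uninduced arrays, and the level was higher at each later time. Its differences from uninduced cells were 2.31 ± 0.29, 4.14 ± 0.29 and 4.46 ± 0.29 (limma, adjusted p = 0.000359, 1.00e-06 and 3.06e-07).

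Sema4c, a transmembrane semaphorin that binds Plxnb2, was at 19.4, 17.2 and 37.7 in uninduced cells, 162, 58.6 and 60.8 at 24 h, 292, 261 and 225 at 48 h, and 348, 266 and 250.2 at 72 h. All induced arrays were above all uninduced arrays, and at 24 h replicate 1 was the highest. It rose by 1.34 ± 0.33, 2.78 ± 0.33 and 2.92 ± 0.33 (limma, adjusted p = 0.0211, 4.58e-05 and 2.06e-05). At 24 h its call was lost without uninduced replicate 1 (adjusted p = 0.0858), without uninduced replicate 2 (0.0772), with a pseudocount of 64 (0.0507) and in a fit of the 6 arrays alone (0.131), within 0.00482 to 0.131 over the alternatives. The call was kept without induced 24 h replicate 1.

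Sema4f, another transmembrane member, was at 23.4, 54.9 and 20.7 in uninduced cells, 59.7, 48.2 and 74.8 at 24 h, 182, 176 and 149 at 48 h, and 344, 223 and 178 at 72 h. The 24 h arrays overlapped with the uninduced arrays, and the later arrays did not. Differences were 1.98 ± 0.30 at 48 h and 2.45 ± 0.30 at 72 h (limma, adjusted p = 0.000279 and 3.91e-05).

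The secreted Sema3c was at 16.5, 36.4 and 8.42 in uninduced cells, 7.14, 52.5 and 35.1 at 24 h, 155, 155 and 173 at 48 h, and 216, 228 and 413 at 72 h. The 24 h arrays spanned the uninduced range, and all arrays at 48 and 72 h were above it. Sema3c rose by 2.35 ± 0.40 at 48 h and 3.06 ± 0.40 at 72 h (limma, adjusted p = 0.000625 and 6.22e-05). Sema3d, also secreted, was at 2.85, 3.18 and 11.2 in uninduced cells, 0.387, 16.7 and 16.3 at 24 h, 27.1, 34.6 and 10.1 at 48 h, and 139.5, 107 and 34.1 at 72 h. Its groups first separated at 72 h, where replicate 3 was the lowest. The difference was 0.84 ± 0.42 at 48 h (limma, adjusted p = 0.137) and 2.20 ± 0.42 at 72 h (adjusted p = 0.00106).

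Within the Sema4 group members parted at 48 h, when Sema4c, Sema4f and Sema4g (1.41 ± 0.38) rose while Sema4a (-1.44 ± 0.28), Sema4b (-1.42 ± 0.37) and Sema4d (-1.10 ± 0.36), the ligand of Plxnb1, fell. Sema4a ran from 59.2 to 73.2 in uninduced cells, 12.7 to 17.2 at 48 h and 4.77 to 21.0 at 72 h, with no overlap. Sema4b ran from 256 to 299 in uninduced cells and from 77.4 to 119 at 48 h, and Sema4d from 184 to 272 and from 63.9 to 127. At 72 h Sema4a was still lower (-1.69 ± 0.28), whereas Sema4b (-0.94 ± 0.37, adjusted p = 0.0549) and Sema4d (-0.54 ± 0.36, adjusted p = 0.248) did not pass. With replicate number as a block Sema4b passed at 72 h (limma, adjusted p = 0.0244), as it did without 24 h replicate 1 (0.015) or 3 (0.0288) or 72 h replicate 2 (0.0435), within 0.015 to 0.232 over the alternatives.

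Of the other semaphorins, Sema6a rose by 1.36 ± 0.22 and 1.76 ± 0.22 at 48 and 72 h and Sema4g by 1.75 ± 0.38 at 72 h. Sema3g rose at 48 h alone (0.95 ± 0.29), with 33.5 to 55.9 against 3.54 to 21.8 in uninduced cells and 13.7 to 16.2 at 72 h, and the step down from 48 to 72 h did not pass (-0.91 ± 0.29, adjusted p = 0.236). Sema3f stood at 1.40 ± 0.54 at 48 h and 1.27 ± 0.54 at 72 h (adjusted p = 0.0579 and 0.073) and passed with the replicate block (limma, adjusted p = 0.0163, 0.00439 to 0.199 over the alternatives, and 0.0219, 0.00149 to 0.301). It also passed at 48 h without 24 h replicate 1 (0.0195) or 3 (0.0366), 48 h replicate 3 (0.0192) or 72 h replicate 3 (0.0429), and at 72 h without 24 h replicate 1 (0.0285) or 3 (0.0476) or 72 h replicate 3 (0.0247). Sema3e, Sema5b, Sema6c and Sema7a were not called at any time in the main fit. Sema5b passed at 24 h with the mean of all probe sets (1.13, limma, adjusted p = 0.0424) and at 48 h with array weights (0.62, 0.0497). Without induced 24 h replicate 1, Sema3e passed at 24 h at 1.69 (limma, adjusted p = 0.00906, 0.00508 to 0.5 over the alternatives). The calls of Sema3g and Sema4d at 48 h were each lost in some fits with 1 array left out. Sema3g was lost without uninduced replicate 1 (adjusted p = 0.094) or 48 h replicate 3 (0.0809) and with quantile normalization (0.0659), within 0.0131 to 0.094 over the alternatives. Sema4d was lost without uninduced replicate 1 (0.111) or 2 (0.0681) or 48 h replicate 2 (0.0658) or 3 (0.126), within 0.00105 to 0.126. Sema4g at 48 h was lost with quantile normalization (0.0545, 0.000503 to 0.0545), and Sema4b with the mean of all probe sets (0.0506, 0.000121 to 0.0506).

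Among the receptors of semaphorins, 6 of 11 rose at 48 h and 6 at 72 h, none fell, and none was called at 24 h. Of all genes, 22.6% and 25.3% rose at 48 and 72 h, and 11.3% were called at 24 h. Nrp1, the co-receptor of secreted semaphorins and of vascular endothelial growth factor, was at 13.4, 17.4 and 2.54 in uninduced cells, 6.32, 71.2 and 51.9 at 24 h, 243, 162 and 272 at 48 h, and 375, 376 and 338 at 72 h. At 24 h replicates 2 and 3 were above the uninduced arrays and replicate 1 was among them, and all later arrays were above. Nrp1 rose by 3.17 ± 0.43 at 48 h and 3.85 ± 0.43 at 72 h (limma, adjusted p = 0.000116 and 1.80e-05). At 24 h it stood at 0.95 ± 0.43 (adjusted p = 0.176), and at 1.55 without replicate 1 (adjusted p = 0.00141, 0.000722 to 0.579 over the alternatives).

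Plxna2, a signalling receptor of the semaphorins, was at 17.2, 33.4 and 47.1 in uninduced cells, 50.5, 107 and 99.2 at 24 h, 237, 207 and 356 at 48 h, and 295, 271 and 451 at 72 h. No induced array overlapped with the uninduced arrays, although the lowest at 24 h, replicate 1, was close to the highest of them. Differences were 1.06 ± 0.33 (limma, adjusted p = 0.0585), 2.55 ± 0.33 (8.96e-05) and 2.88 ± 0.33 (2.39e-05). At 24 h Plxna2 passed with the replicate block (adjusted p = 0.0158), without induced 24 h replicate 1 (0.00593), with a pseudocount of 1 (0.0471), with the mean of all probe sets (0.0255) and with array weights (0.0014), and the alternatives ran from 0.0014 to 0.227.

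Plxnc1, the receptor of Sema7a, was at 8.70, 20.0 and 2.68 in uninduced cells, 22.8, 35.6 and 64.1 at 24 h, 157, 156 and 98.3 at 48 h, and 154, 162 and 59.8 at 72 h. Every induced array was above every uninduced array. Plxnc1 rose by 2.56 ± 0.38 at 48 h and 2.37 ± 0.38 at 72 h (limma, adjusted p = 0.000251 and 0.000313), and stood at 1.09 ± 0.38 at 24 h (0.0884, and 0.0236 without induced 24 h replicate 1, within 0.0163 to 0.35 over the alternatives). Sema7a, its ligand, was at 0.65 ± 0.41 and 0.59 ± 0.41 at 48 and 72 h (adjusted p = 0.239 and 0.269), and passed at 72 h without 72 h replicate 3 (1.13, adjusted p = 0.0173).

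Plxnd1, the receptor of Sema3e, rose by 1.31 ± 0.26 and 1.21 ± 0.26 at 48 and 72 h, from 3.20 to 7.29 in uninduced cells to 32.0 to 37.4 and 21.9 to 39.6. Plxna3 rose by 1.02 ± 0.27 and 1.64 ± 0.27, and Plxna1 by 1.11 ± 0.36 and 1.05 ± 0.36. Nrp2, Plxna4 and the B-type plexins Plxnb1, Plxnb2 and Plxnb3 were not called, with differences between -0.58 and 0.54 at 48 and 72 h. At 24 h Nrp2, a further neuropilin, was at 49.2 to 93.1 against 132 to 282 in uninduced cells, with no overlap (-1.28 ± 0.43, limma, adjusted p = 0.078), and passed with the mean of all probe sets (-1.13, 0.0423). Plxnb1 at 72 h (0.45 ± 0.31, 0.271) passed with the mean of all probe sets (0.95, 0.0138) and with array weights (0.67, 0.012). Plxna1 was lost at 48 h without any uninduced array (adjusted p = 0.0957, 0.0561 and 0.0618 for replicates 1, 2 and 3), without 48 h replicate 1 (0.127) or 2 (0.0877), with quantile normalization (0.0617) and with the mean of all probe sets (0.0823), within 0.000917 to 0.127 over the alternatives. At 72 h the same uninduced arrays (0.0973, 0.0569 and 0.0628), 72 h replicates 1 (0.127) and 2 (0.0842), quantile normalization (0.0657) and the mean of all probe sets (0.135) ended its call, within 0.000453 to 0.135. Plxna3 at 48 h was lost with quantile normalization, at 0.66 (adjusted p = 0.101, 0.000433 to 0.101).

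**Figure D2:**
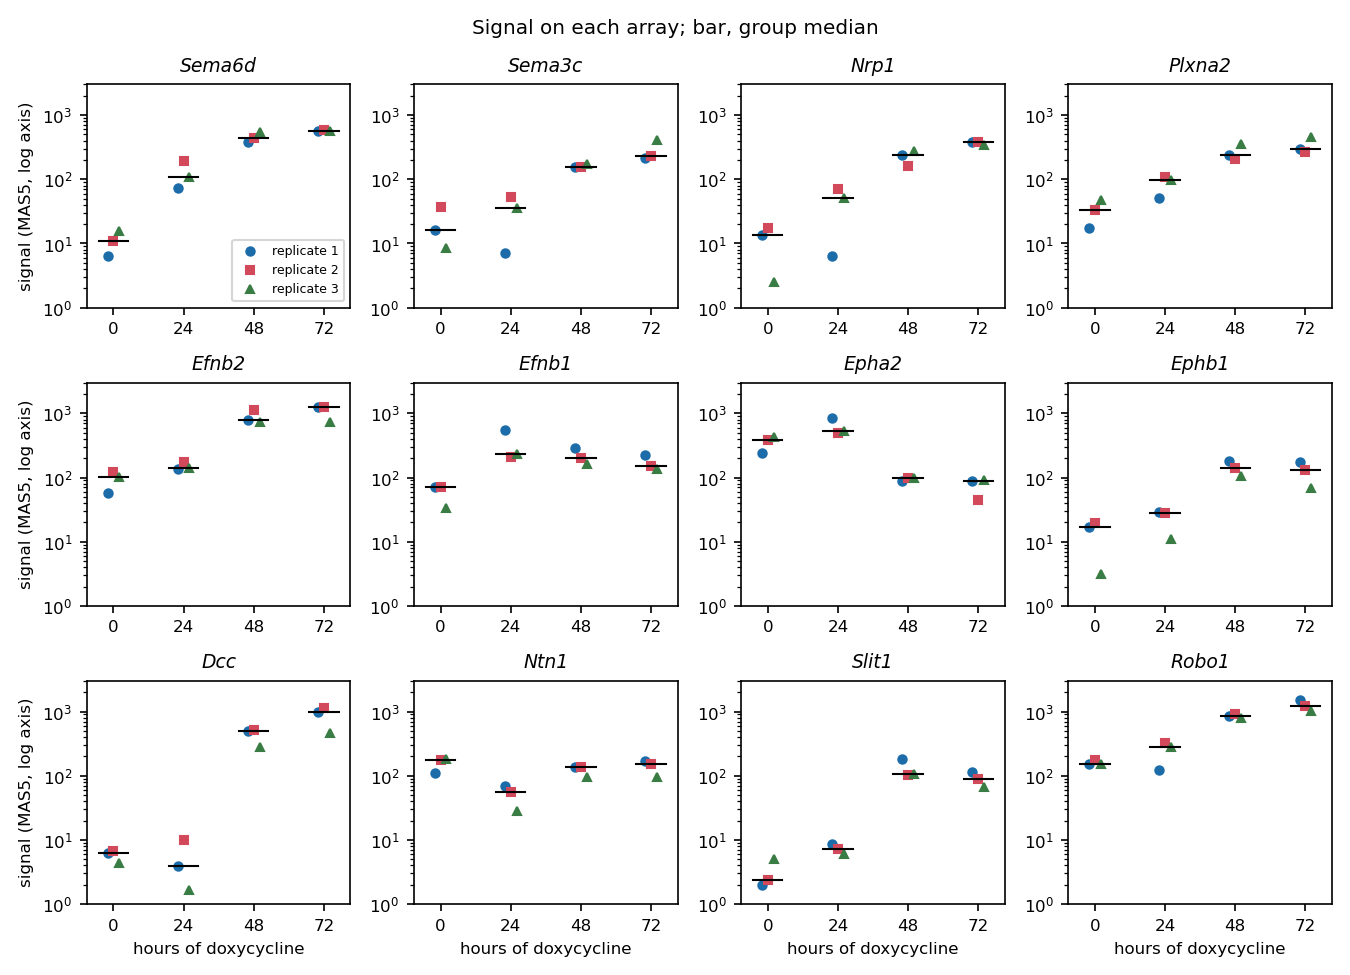
MAS5 signal (log axis) of 12 members on each array against hours of doxycycline, with a marker for each replicate and a bar at the group median (n = 3). Dcc and Slit1 stay at 10.1 or less until 24 h and lie at 67.9 or more from 48 h, Epha2 drops after 24 h, and Ntn1 is lowest at 24 h.

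Ephrins rose or were not called. Of 8 tested, 1 rose at 24 h, 5 at 48 h and 5 at 72 h, and none fell. Of all genes, 22.6% rose and 14% fell at 48 h, and 25.3% rose and 18.6% fell at 72 h. Efnb2, a transmembrane ephrin that binds B-type Eph receptors, was at 56.9, 120.2 and 101 in uninduced cells, 137, 175 and 143 at 24 h, 786, 1138 and 725 at 48 h, and 1239, 1258 and 734 at 72 h. All induced arrays were above all uninduced arrays, narrowly at 24 h. Its differences were 0.67 ± 0.30 (limma, adjusted p = 0.178), 3.07 ± 0.30 (1.05e-05) and 3.34 ± 0.30 (3.29e-06). With array weights the difference at 24 h passed (0.74, limma, adjusted p = 0.049).

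Efnb1, a related transmembrane ephrin, took another course, with 70.9, 71.3 and 33.5 in uninduced cells, 549, 208 and 236 at 24 h, 284, 200.3 and 159.6 at 48 h, and 222, 149 and 134 at 72 h. It was above the uninduced arrays at every time, and its highest array was induced 24 h replicate 1. Efnb1 rose by 2.14 ± 0.37, 1.64 ± 0.37 and 1.33 ± 0.37 (limma, adjusted p = 0.0032, 0.00439 and 0.0119), and by 1.72 at 24 h without that array (adjusted p = 0.00125). At 72 h the call was lost without uninduced replicate 3 (adjusted p = 0.0599), without 72 h replicate 1 (0.0576) and with quantile normalization (0.0505), within 0.000197 to 0.0599 over the alternatives.

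Efna5, an ephrin held by a lipid anchor, was at 31.4, 38.9 and 48.1 in uninduced cells, 43.8, 61.3 and 59.2 at 24 h, 236, 291 and 195 at 48 h, and 395, 332 and 246 at 72 h. The 24 h arrays overlapped with the uninduced arrays, and the later ones did not. Efna5 rose by 2.20 ± 0.24 and 2.60 ± 0.24 at 48 and 72 h (limma, adjusted p = 2.74e-05 and 4.44e-06). Efna2, of the same lipid-anchored type, was at 7.53, 98.7 and 44.5 in uninduced cells, 169.6, 103 and 61.0 at 24 h, 170.0, 218 and 121 at 48 h, and 181, 233 and 205 at 72 h. Its uninduced arrays were widely spread, and the 48 and 72 h arrays were above them. Efna2 rose by 1.73 ± 0.48 and 2.02 ± 0.48 (limma, adjusted p = 0.0136 and 0.00455), and at 48 h the call was lost without uninduced replicate 1, at 1.12 (adjusted p = 0.0565), or 48 h replicate 2 (0.0574), within 0.00117 to 0.0574 over the alternatives. At 24 h it stood at 1.13 ± 0.48 (0.158), and passed without uninduced replicate 2, at 1.66 (0.0406).

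Efna4 rose at 48 h by 1.01 ± 0.27 (239 to 293 against 118 to 137 in uninduced cells), a call lost with quantile normalization (limma, adjusted p = 0.0639, 0.000104 to 0.0639), and stood at 0.48 ± 0.27 at 72 h (0.172, and 0.0148 without 24 h replicate 1). Efnb3 rose at 72 h by 0.93 ± 0.29, with 43.0 to 69.0 against 14.1 to 43.4 and thus with overlap. Its call was lost without uninduced replicate 2 (limma, adjusted p = 0.0738) or 3 (0.0923), 72 h replicate 1 (0.0772) or 2 (0.0789) and with quantile normalization (0.0949), within 0.00146 to 0.0949. At 48 h Efnb3 passed without uninduced replicate 1 (0.93, adjusted p = 0.0294, against 0.64 and 0.11 with it). Efna1 and Efna3 were not called against uninduced cells in the main fit. Efna1 passed at 48 h with the mean of all probe sets (0.50, limma, adjusted p = 0.0466), and Efna3 at 72 h with array weights (0.85, 0.0129).

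Of 9 tested Eph receptors 4 rose and 2 fell at 48 h, 5 rose and 2 fell at 72 h, and none was called at 24 h. Of all genes, 22.6% rose and 14% fell at 48 h, 25.3% and 18.6% did at 72 h, and 11.3% were called at 24 h. Epha2, a receptor tyrosine kinase common in epithelial cells, was at 245, 391 and 422 in uninduced cells, 835, 499.9 and 527 at 24 h, 86.9, 98.1 and 96.8 at 48 h, and 89.2, 44.4 and 92.2 at 72 h. All 24 h arrays were above and all later arrays below the uninduced arrays. The difference was 0.79 ± 0.30 at 24 h (limma, adjusted p = 0.115), -1.71 ± 0.30 at 48 h (0.000808) and -2.03 ± 0.30 at 72 h (0.00017). Epha1 fell too, by 1.09 ± 0.30 and 1.46 ± 0.30, from 25.6 to 35.3 in uninduced cells to 2.06 to 11.9 and 0.661 to 1.63. Its calls were lost with the mean of all probe sets (limma, adjusted p = 0.305 at 48 h, 0.00121 to 0.305 over the alternatives, and 0.0777 at 72 h, 5.59e-05 to 0.0777), and at 48 h also without 48 h replicate 1 (0.0599).

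Epha7, a receptor of lipid-anchored ephrins, was at 0.320, 13.2 and 1.19 in uninduced cells, 0.706, 56.4 and 73.4 at 24 h, 101, 107 and 73.7 at 48 h, and 224, 265 and 127 at 72 h. At 24 h replicate 1 was with the uninduced arrays and the other replicates above them, and at 48 and 72 h every array was above. Its differences were 1.24 ± 0.52 (limma, adjusted p = 0.15), 2.43 ± 0.52 (0.00299) and 3.40 ± 0.52 (0.000211). Without induced 24 h replicate 1 the difference at 24 h was 2.00 (adjusted p = 0.000789, 0.000353 to 0.346 over the alternatives).

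Ephb1, a receptor of the transmembrane ephrins, was at 17.1, 19.3 and 3.16 in uninduced cells, 29.3, 28.3 and 11.1 at 24 h, 183, 143 and 104 at 48 h, and 177, 130.0 and 68.6 at 72 h. The later groups lay wholly above the uninduced arrays, the 24 h group did not, and replicate 3 was the lowest at each time. Ephb1 rose by 2.47 ± 0.35 and 2.24 ± 0.35 at 48 and 72 h (limma, adjusted p = 0.000192 and 0.000269).

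Epha5 was at 1.67, 13.9 and 1.35 in uninduced cells, 8.16, 13.3 and 0.328 at 24 h, 17.4, 40.8 and 10.4 at 48 h, and 96.6, 95.2 and 72.2 at 72 h. The 72 h arrays stood above all others, and the 48 h arrays overlapped with the uninduced ones. Epha5 rose by 2.30 ± 0.33 at 72 h (limma, adjusted p = 0.000121). At 48 h it stood at 0.82 ± 0.33 (0.0681), and passed with the replicate block (0.0145), array weights (0.0285) or without uninduced replicate 2 (0.0332), 24 h replicate 1 (0.0499) or 48 h replicate 3 (0.0381), within 0.0145 to 0.276 over the alternatives.

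Epha3 was at 0.407, 3.77 and 13.9 in uninduced cells, 7.72, 18.2 and 12.9 at 24 h, 30.0, 54.1 and 13.8 at 48 h, and 114, 94.0 and 38.9 at 72 h. Replicate 3 at 48 h lay at the top of the uninduced range, and the 72 h arrays were all above it. Epha3 rose by 1.10 ± 0.38 and 2.11 ± 0.38 (limma, adjusted p = 0.0365 and 0.000665). The 48 h call was lost without uninduced replicate 1 (0.135) or 2 (0.094), without 48 h replicate 1 (0.0875) or 2 (0.158), with a pseudocount of 64 (0.0847), no filter (0.0513) or the mean of all probe sets (0.0751), within 0.00362 to 0.158 over the alternatives. Epha4, which binds ephrins of both types, rose by 1.44 ± 0.43 and 1.56 ± 0.43, from 101 to 191 in uninduced cells to 299 to 524 at 48 h and 274 to 543 at 72 h. Its 48 h call was lost without uninduced replicate 1 (limma, adjusted p = 0.0604) or 3 (0.0729) or 48 h replicate 2 (0.0782), within 0.00056 to 0.0782. Ephb3 and Ephb4 were not called.

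Among netrins and their receptors, 4 of 7 tested rose at 48 h and 5 at 72 h, beside 22.6% and 25.3% of all genes. Dcc, which mediates attraction to netrin, was at 6.27, 6.80 and 4.29 in uninduced cells, 3.87, 10.1 and 1.65 at 24 h, 499, 511 and 276 at 48 h, and 969, 1144 and 469 at 72 h. The uninduced and 24 h arrays overlapped near the bottom of the scale, and all later arrays were far above, with replicate 3 the lowest. Dcc stood at -0.06 ± 0.33 at 24 h and rose by 4.30 ± 0.33 at 48 h and 5.24 ± 0.33 at 72 h (limma, adjusted p = 0.929, 1.95e-06 and 2.71e-07). A further probe set moved the same way (3.60 at 48 h), and the third stood at -0.18 and -0.08 at 48 and 72 h, with 32.3 to 51.7 at 48 h against 38.6 to 58.4 in uninduced cells. Which Dcc transcripts each probe set reads was not tested.

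Neo1, which encodes neogenin, a relative of Dcc, was at 128, 125 and 117 in uninduced cells, 248, 285 and 381 at 24 h, 878, 893 and 879.6 at 48 h, and 986, 925 and 967 at 72 h. The groups did not overlap at any step. Neo1 rose by 1.18 ± 0.20, 2.69 ± 0.20 and 2.81 ± 0.20 (limma, adjusted p = 0.00296, 1.77e-06 and 6.78e-07). At 24 h its call was lost with the mean of all probe sets, at 0.40 (adjusted p = 0.165), and in a fit of the 6 arrays alone (0.0828), within 3.54e-05 to 0.165 over the alternatives.

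Unc5c, a receptor of repulsion from netrin, was at 28.2, 34.7 and 5.63 in uninduced cells, 18.3, 29.5 and 34.0 at 24 h, 89.4, 120.2 and 52.1 at 48 h, and 246, 236 and 127 at 72 h. Each later group lay above the one before it from 24 h on, while uninduced and 24 h arrays overlapped. Unc5c rose by 1.44 ± 0.37 and 2.54 ± 0.37 at 48 and 72 h (limma, adjusted p = 0.00855 and 0.000148). Unc5b stood at -0.69 ± 0.36 at 48 h (adjusted p = 0.158), with 22.2 to 41.5 against 55.0 to 66.3, and passed without induced 24 h replicate 1 (0.0484), in a fit of the 6 arrays alone (0.027) and with array weights (0.0413), within 0.027 to 0.357 over the alternatives.

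Ntn1, the netrin that guides axons to the midline, was at 112, 177 and 182 in uninduced cells, 68.0, 56.4 and 28.4 at 24 h, 137, 135 and 95.1 at 48 h, and 172, 151 and 94.9 at 72 h. The 24 h arrays were below all others, and the later arrays overlapped with the uninduced ones. Ntn1 fell by 1.39 ± 0.30 at 24 h (limma, adjusted p = 0.011), rose by 1.08 ± 0.30 from 24 to 48 h (0.0271), and stood at -0.31 ± 0.30 and -0.16 ± 0.30 against uninduced cells at 48 and 72 h (0.459 and 0.693). It was the sole member called in opposite directions in different comparisons. The fall was lost with the mean of all probe sets (adjusted p = 0.0729) and in a fit of the 6 arrays alone (0.0808), within 0.000713 to 0.0808 over the alternatives. The later rise was lost without 24 h replicate 3 (0.0692), 48 h replicate 1 (0.103) or 2 (0.0966), with quantile normalization (0.11), the mean of all probe sets (0.133) and the 6 arrays alone (0.0796), within 0.00076 to 0.133.

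Ntn4, a netrin of basement membranes, rose at every time, by 0.98 ± 0.24, 1.25 ± 0.24 and 1.86 ± 0.24, from 2.85 to 12.8 in uninduced cells to 26.9 to 31.8, 26.2 to 46.2 and 57.5 to 84.2. Its 24 h call was lost without uninduced replicate 1 (limma, adjusted p = 0.0736) or 3 (0.0775), with a pseudocount of 64 (0.0542) and in a fit of the 6 arrays alone (0.082), within 0.0125 to 0.082 over the alternatives. Ntng1, a lipid-anchored netrin relative, rose at 72 h by 1.00 ± 0.28 (34.0 to 71.4 against 14.5 to 23.1), a call lost without 72 h replicate 1 (limma, adjusted p = 0.0554, 0.00109 to 0.0554).

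Both tested Slits and 2 of 3 tested Robos rose at 48 and 72 h, beside 22.6% and 25.3% of all genes. None was called at 24 h, beside 11.3% of all genes. Slit1, a secreted repellent, was at 1.96, 2.38 and 5.11 in uninduced cells, 8.62, 7.13 and 6.09 at 24 h, 181, 102 and 106 at 48 h, and 114, 87.5 and 67.9 at 72 h. Its 24 h arrays were just above the uninduced arrays at the bottom of the scale, and the later arrays far above. Slit1 rose by 2.89 ± 0.24 and 2.45 ± 0.24 (limma, adjusted p = 3.60e-06 and 7.74e-06), and stood at 0.28 ± 0.24 at 24 h (0.49). Slit2, its paralogue, was at 37.8, 48.2 and 36.1 in uninduced cells, 39.3, 140.1 and 100.3 at 24 h, 149, 272 and 111 at 48 h, and 431, 376 and 413 at 72 h. At 24 h replicate 1 lay within the uninduced range, and the 72 h arrays were above all others. Slit2 rose by 1.69 ± 0.37 and 2.90 ± 0.37 (limma, adjusted p = 0.00342 and 5.29e-05), and at 24 h stood at 0.83 ± 0.37 (0.176), or at 1.25 without replicate 1 (0.00648, 0.00493 to 0.561 over the alternatives).

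Robo1, the main Slit receptor of many axons, was at 154, 173 and 151 in uninduced cells, 121, 324 and 279 at 24 h, 868, 922 and 782 at 48 h, and 1518, 1224 and 1027 at 72 h. Induced 24 h replicate 1 was below the uninduced arrays and the other 24 h replicates above them. Robo1 rose by 2.32 ± 0.31 and 2.84 ± 0.31 (limma, adjusted p = 0.000104 and 1.46e-05). At 24 h it stood at 0.45 ± 0.31 (0.377), or at 0.85 without replicate 1 (0.00314, 0.00296 to 0.697 over the alternatives).

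Robo3, known for its part in the crossing of the midline by commissural axons, was at 17.2, 5.93 and 3.81 in uninduced cells, 4.90, 1.99 and 6.82 at 24 h, 86.2, 27.4 and 25.8 at 48 h, and 148, 134 and 53.3 at 72 h. Replicate 1 at 48 h and replicate 3 at 72 h stood off from the rest of their groups, and both groups were above the uninduced arrays. Robo3 rose by 1.23 ± 0.39 and 2.30 ± 0.39 (limma, adjusted p = 0.0271 and 0.000482). The 48 h call was lost without 48 h replicate 1, at 0.81 (0.126), without uninduced replicate 2 (0.0781) or 3 (0.0941), with a pseudocount of 64 (0.0676) and with the mean of all probe sets (0.129), within 0.00778 to 0.129 over the alternatives. Robo4, known from endothelium, was at -0.48 ± 0.21 and -0.47 ± 0.21 at 48 and 72 h (adjusted p = 0.0966 and 0.0918), and passed at 72 h with quantile normalization (0.0376, 0.0376 to 0.302).

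Reln, the secreted glycoprotein that signals through lipoprotein receptors, was at 4.02, 6.74 and 13.4 in uninduced cells, 28.3, 33.6 and 12.3 at 24 h, 387, 468 and 221 at 48 h, and 500.1, 512 and 217 at 72 h. At 24 h replicate 3 was within the uninduced range, and it was the lowest at 48 and 72 h, where all arrays were far above. Reln rose by 3.92 ± 0.37 and 4.07 ± 0.37 (limma, adjusted p = 8.11e-06 and 3.45e-06), and stood at 0.74 ± 0.37 at 24 h (0.227).

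**Figure D3:**
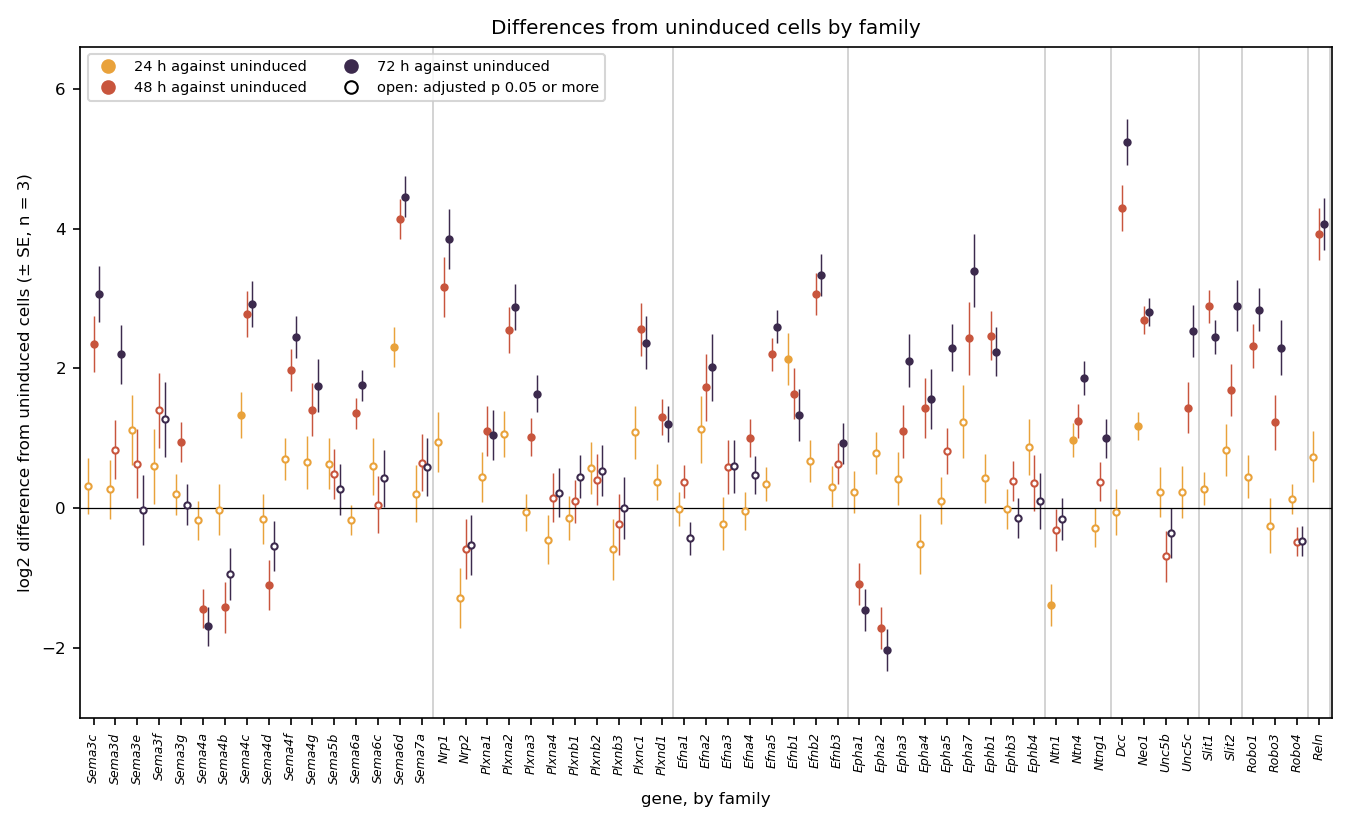
Log2 difference from uninduced cells at 24, 48 and 72 h (points, with SE from limma as bars, n = 3 against 3) for the 57 tested members, ordered by family. Filled points passed an adjusted p under 0.05. Dcc is highest at 5.24 at 72 h, Epha2 is lowest at -2.03, and filled points at 24 h are few.

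Between successive times, most of the calls fell between 24 and 48 h. For 48 h against 24 h 23 members rose and 4 fell (Epha1, Epha2, Sema4a and Sema4b), 47.4% called against 17.8% of all genes (10.3% higher and 7.55% lower), with a median of 0.75 beside 0.02 for all genes. The largest rises were Dcc (4.36 ± 0.33), Reln (3.18 ± 0.37), Slit1 (2.60 ± 0.24), Efnb2 (2.40 ± 0.30) and Nrp1 (2.22 ± 0.43), and the largest fall was Epha2 (-2.50 ± 0.30). These sizes include induced 24 h replicate 1, where Nrp1 was at 6.32, against 71.2 and 51.9 on the other 24 h arrays. Without that array 25 members rose and 4 fell (50.9% called), beside 25.5% of all genes. All 3 arrays at 48 h were above all 3 at 24 h for 27 of 57 members and below for 6 of 57, beside 19.7% and 17.6% of all genes. Epha5 and Sema4d passed with the replicate block (limma, adjusted p = 0.0472, 0.0472 to 0.463 over the alternatives, and 0.017, 0.017 to 0.273). Other members passed for this step when 1 array was left out. Without 24 h replicate 1 they were Efna3 (1.09, adjusted p = 0.0494), Plxna1 (0.98, 0.0329) and Sema4g (1.08, 0.0414). Without 24 h replicate 2 they were Slit2 (1.18, 0.048) and Unc5b (-1.35, 0.0131), without 24 h replicate 3 Epha7 (1.64, 0.04) and Sema4d (-1.24, 0.034), and without 72 h replicate 3 Robo4 (-0.60, 0.0449). After quantile normalization the members called were 17 higher and 6 lower (29.8% and 10.5%), beside 8.48% and 10.1% of all genes.

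Several calls of this step were lost when 1 array was left out. That of Unc5c (1.22 ± 0.37) was lost without 24 h replicate 1 (limma, adjusted p = 0.0629) or 2 (0.0607), 48 h replicate 1 (0.117) or 2 (0.15) or 72 h replicate 2 (0.0524), within 0.0044 to 0.15 over the alternatives. Plxnd1 (0.93 ± 0.26) was lost without 24 h replicate 2 (0.0869) or 3 (0.0527) or any 48 h array (0.0829, 0.0664 and 0.0778), within 0.000355 to 0.0923. Efna4 (1.05 ± 0.27) was lost without 24 h replicate 2 (0.0593) or 48 h replicates 1 (0.0707) or 3 (0.0617), within 8.46e-06 to 0.12, and Robo3 (1.48 ± 0.39) without 24 h replicate 2 (0.0536) or 48 h replicate 1 (0.0959), within 0.00251 to 0.0959. Plxna3 (1.08 ± 0.27) and Plxnc1 (1.47 ± 0.38) were lost without 48 h replicate 1 (0.0517 and 0.0763) or 2 (0.0555 and 0.0727), within 0.000125 to 0.0792 and 0.00139 to 0.0763, and Sema4b without 48 h replicate 1 (0.084) or 3 (0.0569), within 0.00214 to 0.157.

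From 48 to 72 h no member was called, beside 0.796% of all genes (0.644% higher and 0.152% lower), and 12 of 57 were under an unadjusted p of 0.05 (limma, 1015 of all 11806 genes). Of these 12, Efna1 (-0.81 ± 0.24) and Sema3g were lower at 72 h, and the other 10 were higher. The largest values were Epha5 at 1.49 ± 0.33 (adjusted p = 0.0577), Sema3d at 1.36 ± 0.42 (0.222), Slit2 at 1.21 ± 0.37 (0.208), Unc5c at 1.09 ± 0.37 (0.271) and Robo3 at 1.07 ± 0.39 (0.335). For Epha5, Slit2 and Unc5c all 3 arrays at 72 h were above all 3 at 48 h. This held for 11 of 57 members in all, beside 11.5% of all genes. For 4 of 57 members (Efna1, Efna4, Epha1 and Sema3g) all 3 were below, beside 12.6%. Epha5 passed with the replicate block (limma, adjusted p = 0.0135, 0.00179 to 0.657 over the alternatives), without 24 h replicate 1 (0.0252) or 48 h replicate 2 (0.0341), with a pseudocount of 64 (0.00661), the mean of all probe sets (0.018), the 6 arrays alone (0.0247) and array weights (0.00179). Slit2 passed without 24 h replicate 1 (0.0189), with the mean of all probe sets (0.0291), the 6 arrays alone (0.0398) and array weights (0.00517), within 0.00517 to 0.744. Sema3d passed without 72 h replicate 3 (0.0498) and with array weights (0.00102), within 0.00102 to 0.809.

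**Figure D4:**
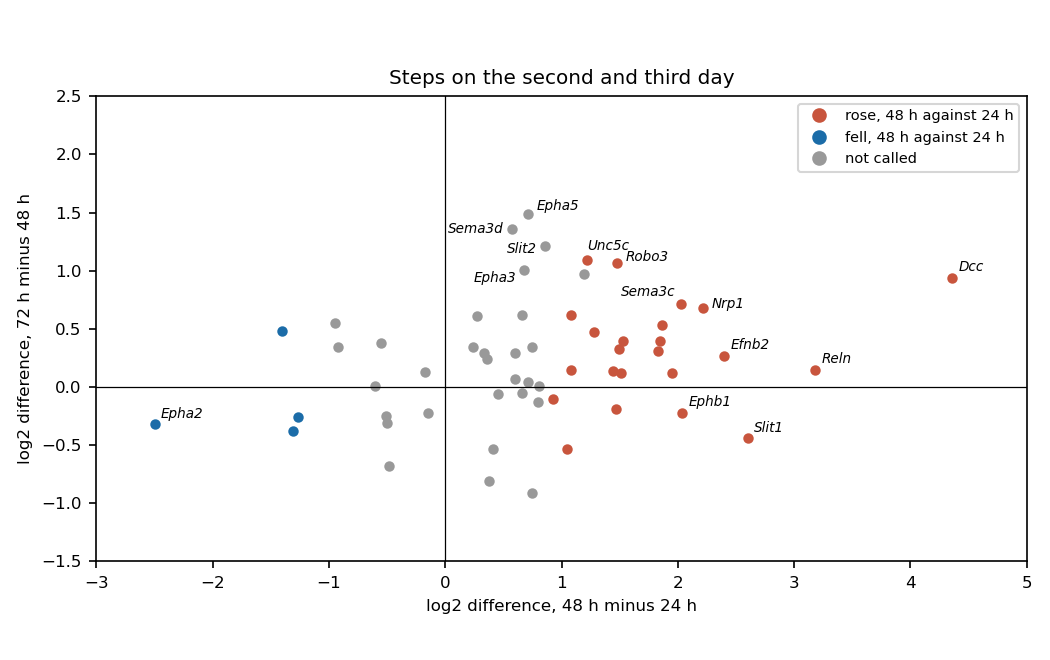
Log2 difference between 72 and 48 h against that between 48 and 24 h for the 57 tested members, coloured by the call for 48 h against 24 h. Both axes use the 48 h arrays, so their relation is not a result. Dcc lies farthest right at 4.36 and Epha2 farthest left at -2.50, and no member passed on the vertical axis.

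Sizes depend on the pseudocount and on the choice of probe set. With a pseudocount of 64, 20 of the 36 called differences at 48 h were over 1.5 times smaller, and with 1, 9 were over 1.5 times larger. Dcc at 48 h was 2.78 with a pseudocount of 64 and 2.57 with the mean of its probe sets. Averaging all probe sets made 15 of the 36 over 1.5 times smaller, such as Sema6d (1.67), Reln (1.98) and Nrp1 (1.79), and no called difference changed sign. Tested members had 84 further probe sets. Of those bright enough to test and belonging to called members, 33 of 34 had the same sign at 48 h and 35 of 36 at 72 h, the exception being that of Dcc. A probe set of a member that rose can pass the filter by being bright in an induced group alone. The agreement is therefore partly built in and is a description. Quantile normalization moved the median of all genes by -0.15 at 48 h and -0.16 at 72 h. Relative to that median the members' median was 0.99 at 48 h either way, and at 72 h 1.24 as deposited and 1.14 after it.

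Other genes of the pathway were counted from lists chosen from general knowledge. Of 43 tested intracellular effectors, which carry the signal from the receptors to the cytoskeleton, 13 rose at 24 h, 25 rose and 1 fell at 48 h, and 25 rose and 1 fell at 72 h, with medians of 0.40, 1.39 and 1.23. Dpysl2, a collapsin response mediator of semaphorin signalling, rose by 3.76 ± 0.27 at 48 h, the growth cone protein gene Gap43 by 3.34 ± 0.31 and Srgap3, a Slit-Robo GTPase-activating protein, by 2.91 ± 0.27. The actin-severing cofilin gene Cfl1 fell by 0.62 ± 0.20 (limma, adjusted p = 0.0262). Of 33 other guidance and adhesion proteins 9, 29 and 30 rose at 24, 48 and 72 h and none fell, with medians of 0.51, 1.84 and 2.04. Prtg, which encodes protogenin, a relative of Dcc, rose by 4.69 ± 0.42 at 48 h, the chemokine receptor gene Cxcr4 by 3.52 ± 0.32 and the adhesion gene Cntn1 by 3.40 ± 0.34. For 48 h against 24 h 13 effectors rose and 1 fell, and 22 of the other proteins rose, or 14 with quantile normalization. Without induced 24 h replicate 1, 18 effectors rose and 1 fell at 24 h, and 30 rose and 3 fell at 48 h. The shares of all genes called, given above for each comparison, are the background of these counts as well. For 72 h against 48 h no effector was called, and L1cam, an axonal adhesion gene named after its value was seen, was the sole call of the other list (2.55 ± 0.25, adjusted p = 0.00105). Without induced 24 h replicate 1, 3 effectors rose and 1 fell and 4 other proteins rose in this step, and with array weights 11 effectors rose and 1 fell and 9 others rose.

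The 15 members that were too dim to test were Epha6, Epha8, Epha10, Ephb6, Unc5a, Unc5d, Ntn3, Ntn5, Ntng2, Robo2, Sema3a, Sema3b, Sema5a, Sema6b and Slit3. Their signals did not exceed 47.1 on any array, a value of Sema5a at 48 h. Sema5a, a transmembrane semaphorin singled out after its values were seen, was at 0.564, 6.26 and 1.13 in uninduced cells, 1.89, 7.12 and 6.86 at 24 h, 32.8, 47.1 and 25.1 at 48 h, and 25.7, 33.4 and 16.7 at 72 h. Its 48 and 72 h arrays were above the uninduced arrays without overlap, and Sema5a was not among the genes tested in the main fit.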

How the data were processed

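Biotinylated cRNA from total RNA was hybridised to 12 arrays, 3 in each of 4 groups. The deposited values are linear MAS5 signal intensities, per the submitters' processing notes, and the MAS5 version and scaling are not stated. Array medians ran from 19.5 to 32.8. Of 45037 probe sets 34945 named a single gene (18193 genes), and each gene was read by its probe set with the highest mean log2(intensity + 16). Genes above the array median on all 3 arrays of any group were tested (11806). All 12 arrays entered 1 fit in limma 3.58.1 (R 4.3.3; trended empirical Bayes), with Benjamini-Hochberg adjustment, tested on simulated data. Intervals of p over the alternatives cover other pseudocounts, filters, normalization, probe set rules, array weights, a replicate block and arrays left out in turn. The number of arrays limits the precision. Nothing beyond the word biological says that replicates came from separate cultures, so p-values may measure technical spread.

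The members and the gene lists were chosen with earlier results of these data known. Values on every array are given for genes called with a log2 difference of at least 2 in size against uninduced cells, or called in opposite directions in different comparisons, and the others by ranges or differences. Same-numbered arrays deviated together in 16 of 18 pairs (r over 0.1; 0.0308 to 0.577), against 3 of 36 pairs of different number, and in every pair of 4 of the 5 comparisons made, the exception being 1 pair of 72 h against uninduced (0.0787). The numbers are those of the labels.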

Additional observations from a re-analysis of the deposited data

Results flagged for a closer look

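The difference from uninduced cells changed between 24 and 48 h for 27 of 57 tested members (47.4%), beside 17.8% of all genes. This is limma's test of 48 h against 24 h given above, in which the uninduced arrays cancel. On the log2 scale the difference from uninduced cells was higher at 48 h for Dcc by 4.36, Reln by 3.18, Slit1 by 2.6, Efnb2 by 2.4, Nrp1 by 2.22, Ephb1 by 2.04, Sema3c by 2.03, Epha4 by 1.95, Robo1 by 1.86, Efna5 by 1.85, Sema6d by 1.83, Sema6a by 1.53 and Neo1 by 1.51. It was also higher for Plxna2 by 1.49, Robo3 by 1.48, Plxnc1 by 1.47, Sema4c by 1.44, Sema4f by 1.28, Unc5c by 1.22, Ntn1 by 1.08, Plxna3 by 1.08, Efna4 by 1.05 and Plxnd1 by 0.93. The steps from 24 to 48 h were -2.5 for Epha2, -1.4 for Sema4b, -1.31 for Epha1 and -1.27 for Sema4a. All these values include induced 24 h replicate 1.

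Among members too dim to test, all 3 induced arrays lay above all 3 uninduced arrays in 7 comparisons, that is for 1, 3 and 3 of 15 members at 24, 48 and 72 h, beside 4.98%, 6.45% and 7.31% of all genes below the filter. The differences were 1.44 at 48 h and 1.14 at 72 h for Sema5a, 0.63 at 48 h and 0.61 at 72 h for Ephb6, 0.55 at 48 h for Ntn3, and 0.28 at 24 h and 0.89 at 72 h for Unc5d. In the other direction, Slit3 lay wholly below the uninduced arrays at 72 h (-1.05), and the share of all genes below the filter was 7.53%. No p-value of these members is given, although the fit with no filter included them.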

How the results depend on the processing

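No member's called difference changed sign under any alternative tried. Members called under every setting that gave a value were 2 of 6 at 24 h, 24 of 36 at 48 h, 31 of 36 at 72 h and 16 of 27 for 48 h against 24 h. Of members not called, 11 of 51 passed in some setting at 24 h, 8 of 21 at 48 h and 9 of 21 at 72 h. For 48 h against 24 h 13 of 30 did, and for 72 h against 48 h 17 of 57. Not all of these are named above. At 24 h 2 members were called in a fit of the groups compared alone, 14 with array weights and 13 without induced 24 h replicate 1 (4 to 13 over the arrays left out). A filter at the 75th percentile left 22 calls at 48 h, 19 at 72 h and 17 for 48 h against 24 h. Fewer members were tested with it (23 in all). Of the 7496 genes tested with it, 2924, 3469 and 1470 were called in these comparisons. For 72 h against 48 h, with 0 calls, the alternatives gave 1 with a pseudocount of 64, 3 with the mean of all probe sets, 2 in a fit of the groups compared alone, 16 with array weights and 0 to 2 with an array left out. Of all 11806 genes, 239, 159, 439 and 1576 were called in the first 4 of these. The replicate block gave 7, 38, 38, 29 and 1 calls for the 5 comparisons and ended none. With it 1676, 4709, 5616, 2501 and 111 of all 11806 genes were called. A filter chosen after seeing the data (any 3 of 12 arrays above the median) gave 6, 37, 38, 28 and 0 calls among 60 members. The shares were 10%, 61.7%, 63.3%, 46.7% and 0%, beside 10.1%, 34.1%, 41.3%, 16.2% and 0.681% of all genes. Counts over all genes moved more, at 24 h from 1335 to 365 in the fit of the groups compared alone, 2999 with array weights, 2961 without induced 24 h replicate 1, and 701 and 826 without uninduced replicates 1 and 3. At 48 h they went from 4316 to 6486, 6756 and 6717 under the first 3 of these. For 48 h against 24 h they went from 2104 to 1030 in the fit of the groups compared alone, 4095 with array weights, and 1195 and 1321 without 48 h replicates 1 and 2. For 72 h against 48 h the count of 94 ran from 19 (pseudocount 1) to 1576 (array weights), and from 27 to 485 over arrays left out. Quantile normalization took the share of higher calls among all genes for 48 h against 24 h from 57.7% to 45.7%. The causes were not tested. Signals near the bottom of the scale have no order that 3 arrays can show.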
